A study of Mus musculus with 6 samples.

Results

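The genes described are those for the plasma membrane glutamate transporters Slc1a1, Slc1a2 and Slc1a3, the neutral amino acid exchangers Slc1a4 and Slc1a5 of the same Slc1 family, the vesicular glutamate transporters Slc17a6, Slc17a7 and Slc17a8, and glutamine synthetase, Glul. They were chosen by name and are 9 of the 54281 genes in the table, each found by its Ensembl identifier. GLUTag cells, a murine enteroendocrine line that secretes GLP-1, were grown for 48 hours on Matrigel in DMEM with 1 g/L glucose, GlutaMAX and 10% FBS, and mRNA from 6 wells was sequenced from the 3′ end with a forward QuantSeq kit. Plate 1 held 3 wells at passage 23 (replicates 1, 2 and 3) and plate 2 held 3 wells at passage 27, whose libraries are told apart by their total count (lowest, middle and highest). No well received a treatment or genetic change, all 6 share the cell line and the medium, and the line is a tumour line and not a primary L-cell population.

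Glutamate enters a cell through the sodium-coupled excitatory amino acid transporters (EAAT), of which Slc1a1 encodes EAAT3, the form known in neurons and epithelia, Slc1a2 encodes EAAT2 (GLT-1) and Slc1a3 encodes EAAT1 (GLAST), both best known in astrocytes. Slc1a4 (ASCT1) and Slc1a5 (ASCT2) exchange neutral amino acids, and glutamine is a substrate of Slc1a5. The vesicular transporters (VGLUT) load glutamate into secretory vesicles and are encoded by Slc17a7 (VGLUT1), Slc17a6 (VGLUT2) and Slc17a8 (VGLUT3), whereas glutamine synthetase turns glutamate and ammonia into glutamine.

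The libraries held between 21399987 and 36488198 expected counts, which are estimated counts per gene before any normalization, and levels are given as CPM, the count scaled to the library total. As 3′ sequencing yields about one tag per transcript whatever its length, CPM was compared between genes without division by length. A count of 3, the limit that a count of 0 allows, corresponded to between 0.0822 and 0.140 CPM. All 10 enteroendocrine markers examined averaged at least 1 CPM, with Gcg, the proglucagon gene, at 3416 ± 771 CPM (SD, n = 6), whereas of 8 astrocyte markers 1 exceeded 3 counts in every library, Gfap reached at most 1 count and Aqp4 at most 9. The summed astrocyte markers lay between 0.530 and 0.875 CPM on plate 1 and between 1.39 and 2.44 CPM on plate 2. Of 8 neuronal markers 7 averaged at least 1 CPM, and their sum ranged from 2910 to 3143 CPM on plate 1 and from 2841 to 3284 CPM on plate 2. The library with the middle total on plate 2 stood apart, where among 5031 genes of 30 CPM or more a fall of over 2-fold relative to its plate was seen for 346 and a rise of that size for 2, so mean levels of the 7 members that averaged at least 1 CPM are also given without it.

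Of the 9 genes, 7 averaged at least 1 CPM and 2, Slc17a8 and Slc1a3, stayed below it. The median level of the 9 was 9.12 CPM, beside a median of 13.1 CPM over the 15669 genes that passed the filter on low counts described with the plates. The 2 sets are not alike, as Slc17a8 and Slc1a3 are among the 9 but did not pass that filter. The levels were led by Slc1a1 and Glul, which together held 74.8 ± 1.65% of the CPM of the 9 genes (SD, n = 6). In RNA from whole wells, fewer cells using a gene and less RNA per cell cannot be told apart.

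**Figure D1:**
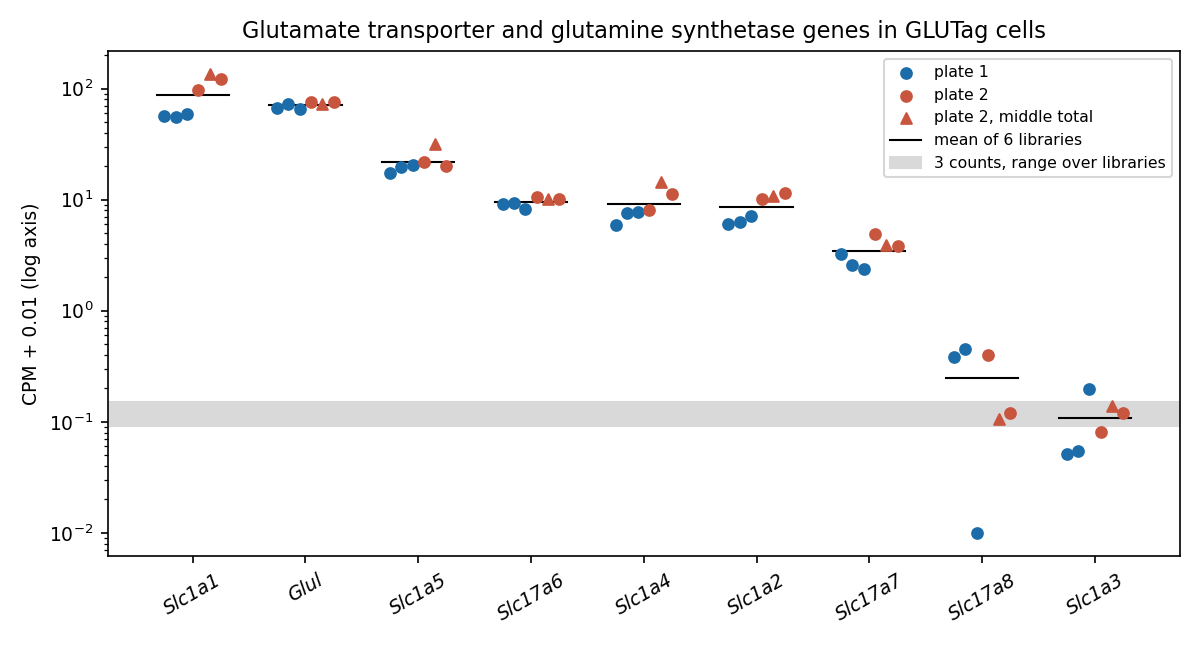
CPM plus 0.01 on a log axis for each of the 9 genes in the 6 libraries (plate 1 and plate 2 in different colours, a triangle for the plate 2 library with the middle total), with the mean of the 6 as a line and the range of 3 counts as a grey band. Slc1a1 and Glul lie highest, with means of 87.3 and 71.3 CPM, and Slc17a8 and Slc1a3 lie at or near the band of 3 counts.

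The 300 bases around the start of transcription (250 before and 50 after, RefSeq, GRCm38.p6, printed 5′ to 3′ on the strand of the gene) were available for 8 of the 9 genes. They are shown for Slc1a1 and Slc1a3, the highest and lowest EAAT genes among these 9, and for Glul as the synthetase. Slc1a4 is also shown, as the member whose window held the C/EBP-ATF motif. Capitals mark the CCAAT box, the GC box GGGCGG, the TATA box TATAAA and the C/EBP-ATF element TGATGNAAN on either strand, and the cyclic AMP element TGACGTCA and the E-box CACGTG were searched in the same way. No match of a motif overlapped one of another in the printed windows.
Slc1a1, chr19:28834885-28835184, plus strand: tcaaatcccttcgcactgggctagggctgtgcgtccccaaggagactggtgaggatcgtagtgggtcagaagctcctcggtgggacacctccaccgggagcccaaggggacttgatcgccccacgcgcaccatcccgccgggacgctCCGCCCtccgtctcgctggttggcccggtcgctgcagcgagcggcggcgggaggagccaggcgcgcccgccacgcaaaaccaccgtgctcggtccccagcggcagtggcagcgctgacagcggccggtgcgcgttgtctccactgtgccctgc
Slc1a3, chr15:8710758-8711057, minus strand: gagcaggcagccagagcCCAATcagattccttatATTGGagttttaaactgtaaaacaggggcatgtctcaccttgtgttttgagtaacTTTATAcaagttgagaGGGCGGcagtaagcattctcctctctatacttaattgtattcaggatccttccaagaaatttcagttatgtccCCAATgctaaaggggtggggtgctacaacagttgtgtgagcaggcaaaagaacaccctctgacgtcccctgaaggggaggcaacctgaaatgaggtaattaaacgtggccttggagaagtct
Glul, chr1:153899679-153899978, plus strand: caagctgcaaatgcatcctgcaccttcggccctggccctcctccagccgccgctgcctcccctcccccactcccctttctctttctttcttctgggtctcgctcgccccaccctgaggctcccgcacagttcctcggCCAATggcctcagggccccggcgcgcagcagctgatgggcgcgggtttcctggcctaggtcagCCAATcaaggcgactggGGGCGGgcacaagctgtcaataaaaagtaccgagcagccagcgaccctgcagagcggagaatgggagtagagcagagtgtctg
Slc1a4, chr11:20332664-20332963, minus strand: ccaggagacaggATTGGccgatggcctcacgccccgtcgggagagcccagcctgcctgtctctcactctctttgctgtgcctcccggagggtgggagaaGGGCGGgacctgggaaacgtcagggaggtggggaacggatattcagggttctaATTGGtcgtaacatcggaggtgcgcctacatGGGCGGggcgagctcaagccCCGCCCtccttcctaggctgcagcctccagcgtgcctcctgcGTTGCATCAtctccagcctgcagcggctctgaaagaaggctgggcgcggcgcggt

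The window of Slc1a1, the member with the highest mean CPM, had a GC content of 70.3% with 32 CpG dinucleotides. That of Slc1a3, the member with the lowest, had 45.3% with 3. The medians over 32544 windows of mouse genes were 53% and 7. Slc1a1 had 1 GGGCGG, which 35.9% of all windows hold, and Slc1a3 had 1 GGGCGG, 3 CCAAT (37.4% of windows) and 1 TATAAA (13.6% of windows). Glul combined 64.3% GC and 17 CpG with 2 CCAAT and 1 GGGCGG, whereas Slc1a4, with 65.0% GC and 21 CpG, held 2 CCAAT, 3 GGGCGG and 1 TGATGNAAN (3.90% of windows). Of the windows not printed, that of Slc1a2 had 45.7% GC with 1 CpG and that of Slc17a7 63.7% with 13. Those of Slc17a6 had 53.7% with 8 and 43.0% with 3, and those of Slc17a8 58.0% with 7 and 45.0% with 6. The Slc1a2 window belongs to a start 47779 bases inside the annotated gene. The latter windows of Slc17a6 and Slc17a8 belong to starts 2631 and 21438 bases inside their genes. All other windows belong to starts within 176 bases of the annotated gene start. TGACGTCA (1.80% of windows) and CACGTG (7.17%) were in none of the 10 windows of these 8 genes, of which Slc17a6 and Slc17a8 have 2 each. These are matches of letters in a fixed window, and no binding was measured.

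Among the EAAT genes, Slc1a1 (ENSMUSG00000024935, chr19:28835049-28913960, plus strand, GRCm38) was at 56.1, 55.5 and 59.1 CPM in replicates 1, 2 and 3 of plate 1 and at 96.0, 135.9 and 121.3 CPM in the plate 2 libraries of lowest, middle and highest total, with counts from 1257 to 4426. All plate 2 libraries were above all plate 1 libraries, so that the mean of 87.3 ± 35.7 CPM (SD, n = 6) joins plate means of 56.9 ± 1.91 and 118 ± 20.2 CPM (SD, n = 3 each), and it was 77.6 ± 29.7 CPM without the plate 2 library of middle total. This level was above that of 87.2% of the genes tested. The protein-coding gene 4430402I18Rik covers the 3′ end of Slc1a1 on the opposite strand and had 20 to 81 counts per library, at a mean of 1.68 CPM, and the strand setting of the quantification is not given in the sources used here.

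Slc1a2 (ENSMUSG00000005089, chr2:102658659-102790784, plus strand) was detected at a lower level, with 6.08, 6.23 and 7.15 CPM on plate 1 and 10.1, 10.8 and 11.5 CPM on plate 2, a mean of 8.65 ± 2.44 CPM (SD, n = 6) from 141 to 421 counts. The plates again did not overlap, and the mean without the plate 2 library of middle total was 8.22 CPM. Slc1a3 (ENSMUSG00000005360, chr15:8634124-8710764, minus strand) had 1, 1 and 4 counts on plate 1 and 2, 4 and 4 on plate 2, a mean of 0.0972 ± 0.0562 CPM, which is at the level of 3 counts and was not distinguished from it at this depth. Slc1a1 therefore made up 90.5 ± 1.25% of the CPM of the 3 EAAT genes and Slc1a2 9.36 ± 1.20% (SD, n = 6), although the sum of the 3 ranged from 61.8 to 146.8 CPM. The remaining EAAT genes of the family, Slc1a6 and Slc1a7, which were singled out after their values were seen, reached at most 6 and 9 counts in any library.

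Of the exchangers, Slc1a5 (ENSMUSG00000001918, chr7:16781340-16798274, plus strand) was at 17.5, 19.6 and 20.6 CPM on plate 1 and at 21.7, 31.5 and 20.2 CPM on plate 2, a mean of 21.9 ± 4.93 CPM (SD, n = 6) from 420 to 974 counts. The plate 2 library of middle total lay above the rest, and without it the mean was 19.9 ± 1.56 CPM. Slc1a4 (ENSMUSG00000020142, chr11:20302180-20332713, minus strand) was at 5.92, 7.64 and 7.66 CPM on plate 1 and at 7.98, 14.4 and 11.2 CPM on plate 2, a mean of 9.12 ± 3.08 CPM from 142 to 444 counts, or 8.07 CPM without the same library. Both genes were highest in this library, where the log2 difference from the other plate 2 libraries was 0.57 for Slc1a5 and 0.54 for Slc1a4, higher than in 97.1% and 96.3% of genes with at least 30 CPM. Slc1a5 supplied 71.0 ± 3.78% of the CPM of the pair, between 64.4% and 74.7% in single libraries.

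The vesicular transporters were less abundant than the leading plasma membrane transporter, with a sum of 13.3 ± 1.80 CPM for the 3 genes. Slc17a6 (ENSMUSG00000030500, chr7:51622006-51671119, plus strand), encoding VGLUT2, was at 9.09, 9.37 and 8.22 CPM on plate 1 and at 10.6, 10.2 and 10.2 CPM on plate 2, with 176 to 371 counts. Its coefficient of variation was 9.12% over the 6 libraries, and 6.27% after scaling by the trimmed mean of M-values (TMM), which compares with 6.35% from counting error alone and a median of 19.4% over all genes tested. Slc17a7 (ENSMUSG00000070570, chr7:45163949-45176142, plus strand), encoding VGLUT1, was at 3.21, 2.56 and 2.38 CPM on plate 1 and at 4.84, 3.88 and 3.78 CPM on plate 2, from 51 to 138 counts. Slc17a8 (ENSMUSG00000019935, chr10:89574020-89621253, minus strand), encoding VGLUT3, had 9, 10 and 0 counts on plate 1 and 11, 3 and 4 on plate 2, a mean of 0.236 ± 0.188 CPM, so that 3 libraries exceeded 4 counts and the others did not.

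Without the plate 2 library of middle total the mean was 9.48 CPM for Slc17a6 and 3.36 CPM for Slc17a7. Slc17a6 accounted for 72.7 ± 3.69% of the VGLUT CPM, Slc17a7 for 25.6 ± 3.58% and Slc17a8 for 1.75 ± 1.45% (SD, n = 6). The share of Slc17a6 lay between 66.9% and 77.5% in single libraries, and Slc17a6 was the highest of the 3 in 6 of 6 libraries. The log2 ratio of Slc17a6 to Slc17a7, taken on CPM + 1 within each library, was 1.28 ± 0.20 (SD, n = 6). The added 1 CPM makes it smaller than the ratio of the CPM values themselves.

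Glul (ENSMUSG00000026473, chr1:153899944-153909723, plus strand) was the steadiest of the abundant members, at 66.5, 72.7 and 65.0 CPM on plate 1 and at 75.3, 72.1 and 76.3 CPM on plate 2, with 1390 to 2785 counts. Its coefficient of variation was 6.49%, and 7.84% after TMM scaling. Its mean of 71.3 ± 4.63 CPM (SD, n = 6) was above that of 84.3% of the genes tested, and it was 71.1 CPM without the plate 2 library of middle total.

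The order of the 9 genes was examined by the difference of log2(CPM + 1) within each library for all 36 pairs, tested by exact two-sided permutation of the signs of the 6 differences. In 31 of the 36 pairs the same gene was higher in 6 of 6 libraries, each with p = 0.03125, the smallest that this exact test allows with 6 libraries, and 0.0363 after Benjamini-Hochberg adjustment over the 36 pairs. Glul exceeded Slc1a5 by 1.68 ± 0.27 on the log2 scale, Slc1a5 exceeded Slc17a6 by 1.09 ± 0.25, and Slc17a7 exceeded Slc17a8 by 1.83 ± 0.34 (SD, n = 6, exact permutation test). The last difference is limited by the added 1 CPM, as Slc17a8 had 0 to 11 counts. Wells of a plate may share a culture, and the test treats them as separate.

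The 5 remaining pairs were not separated. Slc1a1 and Glul differed by 0.19 ± 0.52 on the log2 scale with Slc1a1 higher in 3 of 6 libraries (exact permutation p = 0.4375), since Glul was the higher on plate 1, with a mean difference of −0.25, and Slc1a1 on plate 2, with a mean difference of 0.64. Slc17a6, Slc1a4 and Slc1a2 had means between 8.65 and 9.60 CPM over both plates, in which Slc17a6 exceeded Slc1a4 by 0.11 ± 0.36 (exact permutation p = 0.469) and Slc1a2 by 0.17 ± 0.29 (exact permutation p = 0.281), and Slc1a4 exceeded Slc1a2 by 0.06 ± 0.25 (exact permutation p = 0.594). On plate 1 Slc17a6 was the highest of the 3 in each library, with mean differences of 0.30 from Slc1a4 and 0.40 from Slc1a2, whereas on plate 2 these means were −0.07 and −0.06. Slc17a8 and Slc1a3, both near the level of 3 counts, differed by 0.16 with Slc17a8 higher in 3 libraries and lower in 2 (exact permutation p = 0.25).

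The only contrast the labels allow is plate 2 at passage 27 against plate 1 at passage 23, in which plate and passage cannot be told apart. Every plate 2 library had a higher total (28083507 to 36488198) than every plate 1 library (21399987 to 23994226). Mitochondrial genes held 3.98, 4.03 and 4.85% of the counts on plate 1 and 4.62, 5.32 and 7.27% on plate 2. The TMM scaling factors were 0.886 to 0.933 on plate 1 and 1.08 to 1.11 on plate 2. The part of these measures in the plate differences was not tested. edgeR's quasi-likelihood test with TMM scaling called 29 of 15669 genes, 0.185%, at a Benjamini-Hochberg adjusted p under 0.05, and 2520 genes had an unadjusted p under 0.05. None of the 7 members that passed the filter on low counts was among the called genes, 2 of the 7 had an unadjusted p under 0.05, and 5 of the 7 had a positive log2 fold change with a median of 0.34, beside 54.1% positive and a median of 0.03 over all genes tested. Slc17a8 and Slc1a3 did not pass the filter and were not tested. p-values here measure the spread between wells, which nothing in the labels describes as separate cultures.

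Slc1a1 had the largest estimate of the 7 members, at 62.5 ± 1.06 TMM-scaled CPM on plate 1 and 107 ± 20.1 on plate 2 (SD, n = 3 each), a log2 fold change of 0.78 (SE 0.147, 95% interval 0.45 to 1.12, edgeR adjusted p = 0.0802), with each plate 2 library above each plate 1 library. The estimate stayed between 0.63 and 1.05 over 13 settings, with adjusted p from 0.000167 to 0.379. It passed the threshold without the plate 2 library of middle total (0.63, edgeR adjusted p = 0.00256), where 1911 genes or 12.0% of those tested were called. It also passed with DESeq2 (0.76, adjusted p = 0.00199), which called 3.73% of genes, in edgeR with no filter on low counts (0.80, adjusted p = 0.000167), which called 2.02%, and in edgeR with scaling to the library total alone (1.05, adjusted p = 0.0273), which called 9.46% and placed the median of all genes at 0.30.

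Slc1a2, at 7.11 ± 0.516 TMM-scaled CPM on plate 1 and 9.85 ± 0.722 on plate 2 (SD, n = 3 each), had a log2 fold change of 0.47 (SE 0.163, 95% interval 0.10 to 0.84, edgeR adjusted p = 0.206), and it passed the threshold only with scaling to the library total alone (0.74, edgeR adjusted p = 0.0344). Slc1a4 gave 0.40 (95% interval −0.15 to 0.94, edgeR adjusted p = 0.470), which became 0.13 without the plate 2 library of middle total and 0.60 without that of lowest total. Slc1a5 gave 0.08 (95% interval −0.35 to 0.52, edgeR adjusted p = 0.881), which became −0.18 without the library of middle total, 0.17 without that of lowest and 0.21 without that of highest total, and 0.02 without replicate 1.

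For Slc17a7 the estimate was 0.34 (95% interval −0.17 to 0.86, edgeR adjusted p = 0.510). Slc17a6 gave −0.06 (95% interval −0.40 to 0.29, edgeR adjusted p = 0.904) and Glul −0.14 (95% interval −0.39 to 0.12, edgeR adjusted p = 0.608), and with scaling to the library total alone both turned positive, at 0.21 and 0.13. Under that scaling all 7 members were positive, with Slc1a4 at 0.66, Slc17a7 at 0.61 and Slc1a5 at 0.35, where the median of all genes was 0.30. Without replicate 2 the estimate of Glul was −0.07.

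**Figure D2:**
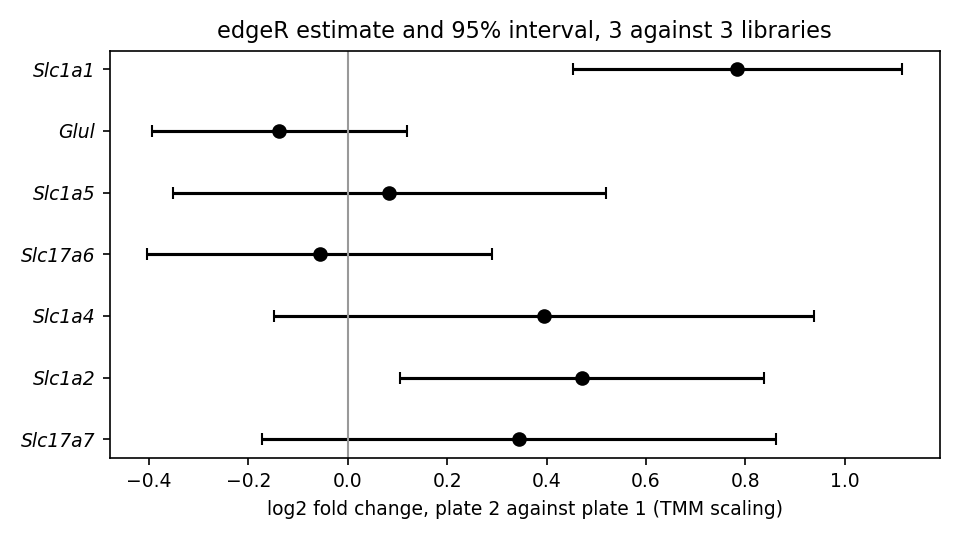
Log2 fold change of plate 2 against plate 1 by edgeR for the 7 members that passed the filter on low counts, with 95% intervals, from 3 libraries against 3. The intervals of Slc1a1 (0.45 to 1.12) and Slc1a2 (0.10 to 0.84) lie above 0 and those of the other 5 genes include it, and none had an adjusted p under 0.05.

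In TMM-scaled CPM the libraries of the plates did not overlap for 3 of the 7 members, Slc1a1 and Slc1a2, which were higher on plate 2, and Glul, which was lower there (74.7 ± 6.45 against 67.9 ± 1.36), where 24.7% of all genes tested did not overlap. In CPM over the library total the number was 5 of 7 (Slc1a1, Slc1a2, Slc1a4, Slc17a6 and Slc17a7, all higher on plate 2) beside 39.2% of all genes. Of the 8 astrocyte markers, whose summed CPM was higher on plate 2, only Fgfr3 passed the filter, with a log2 fold change of 1.12 (edgeR adjusted p = 0.229), and it held most of that sum with 0.961, 1.62 and 1.67 CPM on plate 2. The 7 neuronal markers tested all had negative log2 fold changes in the TMM-scaled fit, with a median of −0.29 and 0 called by edgeR (1 at an unadjusted p under 0.05, 0 called by DESeq2), and with scaling to the library total alone 3 were positive and 4 negative. Without the plate 2 library of middle total 1 of 8, Tubb3, was called by edgeR as lower on plate 2, beside 12.0% of all genes. Of the 10 enteroendocrine markers 0 were called by edgeR, with 3 positive and 7 negative estimates (9 and 1 with scaling to the library total alone), of which Pcsk1, the prohormone convertase, had a log2 fold change of 0.56 (edgeR adjusted p = 0.135), and without the same library 3 were called, Pcsk1 as higher and Chga and Cck as lower on plate 2; Pcsk1 was also called with no filter and with scaling to the library total alone. The part of these lists in the differences of Slc1a1 and Slc1a2 was not tested.

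**Figure D3:**
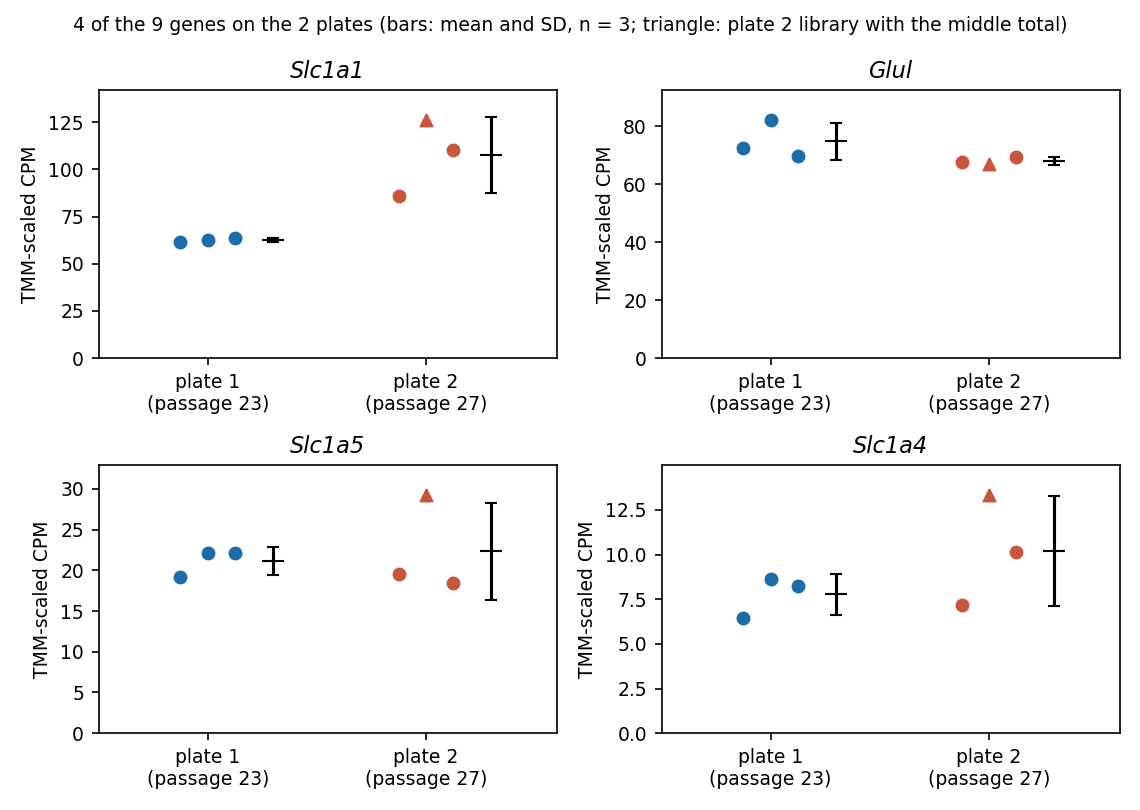
TMM-scaled CPM of Slc1a1, Glul, Slc1a5 and Slc1a4 in the 3 libraries of plate 1 (passage 23) and of plate 2 (passage 27), with the mean and SD of each plate (n = 3), and a triangle for the plate 2 library with the middle total. Slc1a1 separates the plates (62.5 ± 1.06 against 107 ± 20.1), and Slc1a1, Slc1a5 and Slc1a4 are highest in the triangle library.

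The other genes of glutamate metabolism were followed by lists. Of 28 enzyme genes, 21 averaged at least 1 CPM and 22 were tested between plates, of which 0 were called by edgeR and 6 had an unadjusted p under 0.05, beside 16.1% of all genes, with 16 positive and 6 negative estimates, beside 54.1% positive over all genes, and a median log2 fold change of 0.20. The most abundant were Got1, the cytosolic aspartate aminotransferase, at 282 ± 56.3 CPM, Psat1, the phosphoserine aminotransferase of serine synthesis, at 185.7 ± 11.2 CPM, and Gfpt1, which feeds glutamine nitrogen into hexosamines, at 96.8 ± 18.4 CPM (SD, n = 6). Lgsn and Folh1 had 0 counts in all libraries. Aldh18a1, which starts proline synthesis from glutamate and was singled out after its values were seen, was at 12.2 ± 4.63 CPM with a log2 fold change of 0.70 (SE 0.171, edgeR adjusted p = 0.121), and it was the 1 enzyme gene of 22 called by DESeq2, beside 3.73% of all genes. Without the plate 2 library of middle total, where 12.0% of all genes were called by edgeR, 5 of 22 enzyme genes were called, with Aldh18a1, Glud1 and Oat higher and Asns and Psat1 lower on plate 2. With scaling to the library total alone, where 9.46% of all genes were called, all 22 estimates were positive and 8 were called, each higher on plate 2. Gls2 was at 15.3 ± 2.40 CPM (SD, n = 6) with a log2 fold change of 0.12 (edgeR adjusted p = 0.749).

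Among 12 further genes of glutamate and glutamine transport at the plasma membrane, 6 averaged at least 1 CPM and were tested, with 1 positive and 5 negative estimates (4 and 2 with scaling to the library total alone), a median of −0.22, and 0 called by edgeR or below an unadjusted p of 0.05. With no filter on low counts 11 were tested, and 6 positive and 5 negative estimates gave a median of 0.31, with 0 called. The glutamine carriers Slc38a2 and Slc38a1 led, at 165.7 ± 18.7 and 101 ± 13.1 CPM, followed by Slc3a2, the heavy chain shared by several amino acid exchangers, at 97.0 ± 36.1 CPM (SD, n = 6). Slc3a2 reached 166.4 CPM in the plate 2 library of middle total, in which Slc1a5 and Slc1a4 were also highest. The more abundant Slc38a2 and Slc38a1 were instead at their lowest in that library, at 142.3 and 80.2 CPM. Slc7a11, the light chain of the cystine-glutamate exchanger, was at 1.53 ± 0.104 CPM (edgeR adjusted p = 0.777 between plates), and Slc6a14 had 0 counts in all libraries.

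Of 13 genes for transport across vesicle, lysosome and mitochondrial membranes, 10 were tested, with 4 positive and 6 negative estimates, a median of −0.04, and 0 called by edgeR or below an unadjusted p of 0.05. The mitochondrial oxoglutarate carrier Slc25a11, at 103 ± 17.9 CPM, and the aspartate-glutamate carrier Slc25a12, at 87.3 ± 5.47 CPM, were the most abundant, before the vesicular chloride transporter Clcn3 at 52.7 ± 6.08 CPM (SD, n = 6). Slc25a22, a mitochondrial glutamate carrier singled out after its values were seen, was at 3.04 CPM in the plate 2 library of middle total and between 20.8 and 36.7 CPM in the others, and without that library 1 of 10 genes of this list, Slc17a4, was called by edgeR as lower on plate 2, beside 12.0% of all genes. With scaling to the library total alone all 10 estimates of this list were positive.

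**Figure D4:**
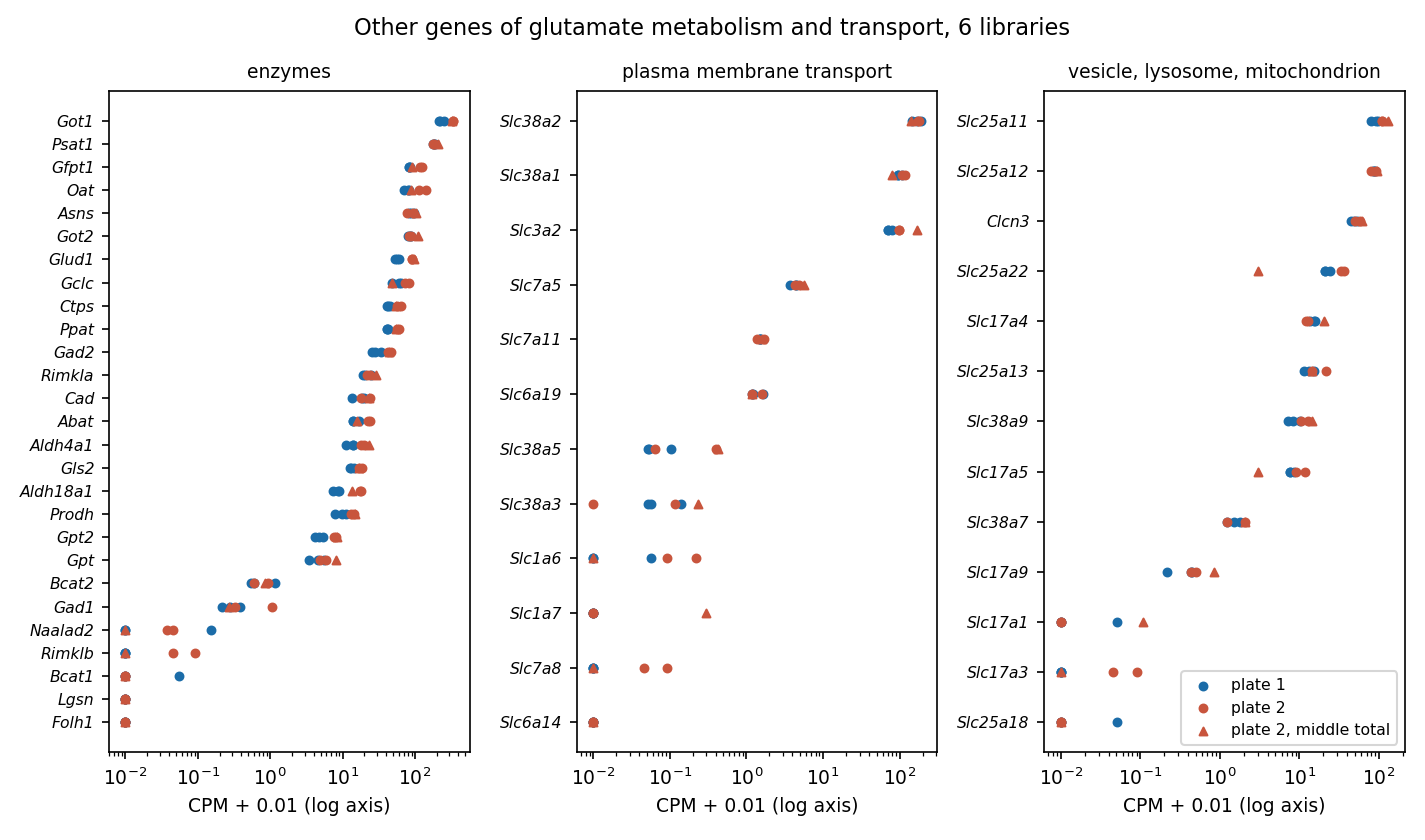
CPM plus 0.01 on a log axis for the genes of these lists, 1 enzyme gene left out, in panels for enzymes, plasma membrane transport and organelle transport, with a point per library coloured by plate and a triangle for the plate 2 library with the middle total. Got1 is highest among enzymes with a mean of 282 CPM, Slc38a2 among plasma membrane transporters with 165.7 CPM and Slc25a11 among organelle transporters with 103 CPM.

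The genes most like Slc1a1, Slc17a6 and Glul, the leading members for the plasma membrane, the vesicle and the synthetase, were sought by Pearson's r of log2(TMM-scaled CPM + 1) over the 6 libraries, among genes that reached 10 CPM in each of them. For Slc1a1 they were Mtor (0.996), Hars2 (0.996) and Tstd2 (0.993), and 337 of 7588 genes had an r of at least 0.9. For Slc17a6 they were Trim2 (0.984), Tesk1 (0.978) and Utp3 (0.975), with 39 of 7589 genes at 0.9 or above, and for Glul they were Uncx (0.982), Eif2d (0.968) and Diaph2 (0.967), with 57 of 7588. These correlations describe 6 libraries that share 2 plates and differ in depth, and the values were picked as the highest among all genes compared.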

How the data were processed

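The deposited values were expected counts per gene, which the authors estimated with Salmon 1.5.1 on GRCm38 after trimming with Trim Galore 0.6.4, without correction for transcript length, and summed per gene with Tximeta. No normalization had been applied. The columns of plate 1 matched replicates 1, 2 and 3, and those of plate 2 matched the group only. Gene symbols and positions came from a GENCODE annotation of GRCm38, in which 54107 of 54281 identifiers were found, and promoter windows from RefSeq.

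CPM was taken over the column total, with unrounded values, and counts were rounded for edgeR and DESeq2. Pairs of genes were compared by an exact sign-flip permutation test on log2(CPM + 1). The plates were compared over 15669 genes by the robust quasi-likelihood test of edgeR 4.0.16 after TMM scaling and its default filter on low counts (filterByExpr), which was also run on simulated data with known changes. DESeq2 1.42.0, limma-voom 3.58.1, other filters, scalings and pseudocounts, and fits that left out a single library served as alternatives. R 4.3.3, Python 3.11.15, numpy 2.4.6, pandas 2.3.3, scipy 1.17.1 and matplotlib 3.10.9 were used. Totals of 21399987 to 36488198 counts per library put 3 counts at 0.0822 to 0.140 CPM, and this limit covers counting error only.

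The members and the lists were chosen with earlier results of these data known. All 9 members are named. Of each further list the 3 most abundant genes and those at 0 in every library are given, with Gls2 and Slc7a11, and of the markers Gcg, Gfap and Aqp4. Slc1a6, Slc1a7, Slc25a22, Slc17a4, the markers Fgfr3, Tubb3, Pcsk1, Chga and Cck and the enzyme genes Aldh18a1, Asns, Glud1 and Oat were added after their values were seen. Values of 1 enzyme gene of the lists are not reported here.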

Additional observations from a re-analysis of the deposited data

Results flagged for a closer look

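Slc1a5 stood out in the library of plate 2 with the middle total, where it was at 31.5 CPM against 17.5 to 21.7 CPM in the other 5 libraries. The gap to the next library was 0.699 of the whole range, above the 0.625 of Dixon's test for 6 values, and such a gap arises by chance in about 1 of 20 groups. Slc1a5 was the only one of the 7 members tested in this way that passed it, and its mean without this library was 19.9 CPM.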

How the results depend on the processing

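The mean CPM of Slc1a1 was 56.9 on plate 1 alone and 118 on plate 2 alone, and over all settings the mean of Glul lay between 68.0 and 75.1 and that of Slc17a6 between 8.89 and 10.3. By mean CPM, Glul led on plate 1 alone, Slc17a6, Slc1a4 and Slc1a2 changed places on plate 2 alone, without replicate 1 and without the plate 2 library of middle total, and the order of the other members did not change in these settings. With the 7 genes of at least 1 CPM, 17 of 21 pairs were separated in every library and past the threshold, and with 5 libraries the exact permutation test cannot reach 0.05 (smallest p 0.0625). The number of genes called between plates was 584 with DESeq2 (3.73%), 545 with no filter (2.02%) and 1482 with scaling to the total alone (9.46%). When a library was left out it was 0 to 1911, the most being 12.0% without the plate 2 library of middle total. The fits with 0 calls in edgeR left out replicate 1 or the plate 2 library of lowest total. In them 1611 and 2121 genes had an unadjusted p under 0.05. The number of genes called was 30 with limma-voom, 29 with at least 10 counts in every library and 34 with DESeq2 size factors. The number of members called was 1 with DESeq2 and with no filter, 2 with scaling to the total alone, and 0 to 1 when a library was left out. The 1 was in the fit without the plate 2 library of middle total. Of the enzyme genes, 1 was called with DESeq2 and with no filter, 8 with scaling to the total alone, and 0 to 5 when a library was left out; of the organelle transport genes, 0 to 1 when a library was left out. The log2 fold change turned for Slc17a6 to 0.21 and for Glul to 0.13 with scaling to the total alone, for Slc17a6 to 0.00194 without replicate 2 (−0.13 to 0.00194 when a library was left out) and for Slc1a5 to −0.18 without the plate 2 library of middle total. The cause of these changes was not tested. No paired analysis was possible because wells are numbered 1 to 6 across the plates in the labels, and the numbers 1 to 3 that restart in the columns of plate 2 match no single one of these. Genes below 3 counts could not be told from absent at this depth.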
